A study of Mus musculus with 12 samples.

Results

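The Ifit family, as described here, comprised 4 mouse genes, Ifit1, Ifit2, Ifit3 and I830012O16Rik, the last an Ifit3 paralogue that current annotation calls Ifit3b. The members were picked by name, from the symbols of the deposited expression table and the Ensembl gene IDs of the count files. No rule on their values was used, but earlier results of these data were known. They are 4 of 38924 gene IDs counted in each of 12 libraries, and all 4 passed the filter on low counts that left 13811 genes for testing.

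RNA sequencing covered naive CD4+ T cells sorted from the spleens of C57BL/6 mice 8 to 12 weeks old, either wild type (WT) or without functional STING (labelled STING KO, and STINGgt/gt in the study). STINGgt/gt mice carry a point mutation in every cell, so nothing was removed in T cells alone. Cells of both genotypes were stimulated through CD3 and CD28 for 2 days, left to rest for 1 day, and then kept for 16 h with the solvent DMSO or with 10-carboxymethyl-9-acridanone (CMA), a small molecule agonist of mouse STING. The 4 groups (WT with DMSO, WT with CMA, STING KO with DMSO and STING KO with CMA) held 3 libraries each. The study calls its RNA sequencing replicates biological, without saying whether the 3 were separate animals or cultures, and p-values measure the spread between them.

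Reads counted on genes ran from 27414450 to 43784910 per library. Tmem173, which encodes STING, lay between 183 and 190.3 reads per 1000000 of the TMM-scaled library size (CPM) in WT and between 168 and 181 in STING KO T cells with DMSO, and since a point mutation can leave the mRNA in place, its level does not check the genotype labels. The 7 T-cell markers listed (among them Cd3e, Cd4 and Lck) summed to 2866 to 2918 CPM in WT with DMSO and 2634 to 2641 in WT with CMA. In STING KO they summed to 2950 to 2992 with DMSO and 2983 to 3054 with CMA. Markers of other cells were present too. The 5 B-cell markers (Cd79a, Cd79b, Ms4a1, Pax5 and Cd22) summed to 186 to 194 CPM in WT with DMSO, 236 to 257 in WT with CMA, 79.96 to 86.3 in STING KO with DMSO and 78.0 to 78.2 in STING KO with CMA. The 7 myeloid markers summed to 9.36 to 10.6, 3.83 to 4.57, 2.73 to 2.96 and 2.10 to 3.07 CPM in the same order, with no marker at 0 in every library, and the 6 CD8 T and natural killer cell markers to 74.7 to 79.2, 65.8 to 69.8, 53.2 to 61.2 and 56.8 to 64.0. The part of these cells in the results on the Ifit genes was not tested. In such bulk libraries, fewer cells of a type and less RNA per cell cannot be told apart.

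IFIT proteins (interferon-induced proteins with tetratricopeptide repeats) are antiviral effectors that are scarce in resting cells and made in large amounts after type I interferon. IFIT1 binds RNA whose cap lacks the methyl marks of host mRNA and keeps it from being translated, and IFIT1 and IFIT2 bind subunits of the translation initiation factor eIF3. Their genes are switched on through the interferon-stimulated response element (ISRE), a DNA site bound by a complex with STAT2 and IRF9 downstream of the interferon receptor and also by IRF3, the factor that STING activates through the kinase TBK1.

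The 4 members lie within 99.3 kb of chromosome 19 (GRCm38, GENCODE M21), all on the plus strand. From left to right these are Ifit2 (ENSMUSG00000045932, chr19:34550694-34576419), Ifit3 (ENSMUSG00000074896, chr19:34583531-34588731), I830012O16Rik (ENSMUSG00000062488, chr19:34607970-34613401) and Ifit1 (ENSMUSG00000034459, chr19:34640871-34650009). A pair of Ifit1-like genes sits between them on the minus strand, Gm14446 (Ifit1bl1, chr19:34592888-34601968) and 2010002M12Rik (Ifit1bl2, chr19:34617049-34640743).

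The sequence before each start site was searched for the core of the ISRE, GAAA, any 2 bases and GAAA again, on both strands, in the RefSeq windows of 300 bases around annotated starts (GRCm38.p6). The core was present in 2 copies in the windows of Ifit1, Ifit3 and I830012O16Rik, and in neither of the windows of Ifit2. Of all 32851 windows searched the same way, 3.44% held it. The stretches below end before the RefSeq start or the first annotated exon, whichever comes first, and are printed 5′ to 3′ on the plus strand, with matches in capitals. They show how alike the upstream sequence of Ifit3 and I830012O16Rik is and how the copies of the core differ in spacing in Ifit1.
Ifit1, chr19:34640744-34640870: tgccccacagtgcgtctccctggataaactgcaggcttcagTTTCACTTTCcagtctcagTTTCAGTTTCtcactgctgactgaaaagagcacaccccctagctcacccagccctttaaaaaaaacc
Ifit3, chr19:34583279-34583528: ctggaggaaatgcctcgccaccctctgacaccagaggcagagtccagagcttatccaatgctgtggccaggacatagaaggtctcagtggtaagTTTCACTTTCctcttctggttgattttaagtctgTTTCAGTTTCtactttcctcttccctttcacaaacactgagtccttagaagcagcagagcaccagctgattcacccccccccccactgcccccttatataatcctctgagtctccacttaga
I830012O16Rik, chr19:34607707-34607956: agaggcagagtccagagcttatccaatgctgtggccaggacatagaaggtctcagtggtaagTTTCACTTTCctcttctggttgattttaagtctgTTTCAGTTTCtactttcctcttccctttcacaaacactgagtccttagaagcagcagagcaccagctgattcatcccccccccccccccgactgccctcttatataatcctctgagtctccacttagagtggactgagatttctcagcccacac
Ifit2, chr19:34550444-34550693: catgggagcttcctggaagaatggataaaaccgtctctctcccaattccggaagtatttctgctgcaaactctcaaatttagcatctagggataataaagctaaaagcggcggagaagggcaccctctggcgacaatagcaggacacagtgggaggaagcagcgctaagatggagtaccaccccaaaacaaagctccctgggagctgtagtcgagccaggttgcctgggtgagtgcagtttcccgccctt

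All 6 matches in these stretches read as the reverse complement of the core. They begin 156 and 122 bases before the RefSeq start of Ifit3, 188 and 154 bases before that of I830012O16Rik, and 104 and 85 bases before that of Ifit1. The stretches of Ifit3 and I830012O16Rik matched at 217 of 218 aligned bases. The pair in Ifit1 also lies in the window of 2010002M12Rik, which starts on the other strand. With a C required after the second GAAA, the same 3 members kept 2 matches each and the share of all windows fell to 0.819%. These are matches of letters and not measured binding, and the absence of the core from the windows of Ifit2 says only that these letters are not there.

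The near-identity of Ifit3 and I830012O16Rik also bears on their counts. Their coding sequences, both 1212 bases long, matched at 1201 bases (99.1%), against 60.9% between Ifit3 and Ifit1 and 66.8% between Ifit3 and Ifit2. The 60-base coding window with the most differences (coding bases 229 to 288, differing bases in capitals) shows how few places tell the copies apart.
Ifit3: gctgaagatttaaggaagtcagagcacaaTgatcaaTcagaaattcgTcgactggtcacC
I830012O16Rik: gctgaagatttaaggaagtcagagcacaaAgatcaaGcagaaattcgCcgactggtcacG

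Of all stretches of 50 bases in the Ifit3 transcript, 51.2% also occurred in another gene's transcripts, and for I830012O16Rik this share was 45.0%. It was 7.13% for Ifit1, whose copies are the minus-strand pair, and no stretch of Ifit2 was shared. With stretches of 100 bases the shares were 31.7% for Ifit3, 27.4% for I830012O16Rik and 3.29% for Ifit1. Alignments that were not unique (27.8% to 30.3% of all entries) were not counted on any gene, so the levels of Ifit3 and I830012O16Rik are too low by an amount that depends on the read length, and a sum over both was tested as well.

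In WT T cells all 4 members rose with CMA, from levels at which 1 member was barely detected to levels that put them among the most changed genes. Ifit1, the sensor of incompletely capped RNA, had 95, 117 and 170 reads in the DMSO libraries and 13246, 11451 and 11901 in the CMA libraries, or 3.46, 3.92 and 4.14 CPM against 369.5, 353 and 375 CPM. Each CMA library of Ifit1 stood far above every DMSO library. The group means were 3.84 ± 0.350 and 366 ± 11.3 CPM (SD, n = 3), and the fitted log2 fold change was 6.56 (standard error, SE, 0.089, edgeR adjusted p = 2.76e-18), a 94.3-fold rise.

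Ifit2, which binds eIF3 subunits, started from the highest level of the family. It had 17.5, 15.2 and 19.4 CPM with DMSO and 202, 192 and 205 CPM with CMA. The groups did not overlap, but the rise was the smallest of the 4, with a log2 fold change of 3.51 (SE 0.077, edgeR adjusted p = 9.65e-16), or 11.4-fold.

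Ifit3, which encodes one of the shorter IFIT proteins, was close to the limit of detection with DMSO, with 7, 8 and 13 reads (0.255, 0.268 and 0.317 CPM). With CMA it had 1623, 1309 and 1367 reads (45.3, 40.4 and 43.1 CPM), and no library of either group came near the other group. Its log2 fold change was 7.22 (SE 0.12, edgeR adjusted p = 2.41e-17), or 149-fold.

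I830012O16Rik, the near-copy of Ifit3, had 0, 0 and 1 reads with DMSO and 269, 196 and 253 reads with CMA (7.50, 6.05 and 7.97 CPM). It was thus detected by a single read in 3 WT libraries with DMSO and by 718 reads with CMA. The ratio of the scaled counts was 706, with an exact 95% interval from 126 to 27916 that covers counting error only. The fitted log2 fold change was 9.04 (SE 0.36, edgeR adjusted p = 1.47e-12). It rested on that 1 read, since without WT DMSO replicate 3 it was 10.98, and it was 8.32 in limma-voom and 8.36 in limma on the authors' log2 values, while no alternative that could test it ended the call.

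Summed into 1 row, Ifit3 and I830012O16Rik rose by a log2 fold change of 7.39 (SE 0.12, edgeR adjusted p = 2.34e-17). The call for the pair therefore did not hang on how reads were split between them. In the CMA libraries of WT, Ifit3 had 6.03, 6.68 and 5.40 reads for each read of I830012O16Rik.

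**Figure D1:**
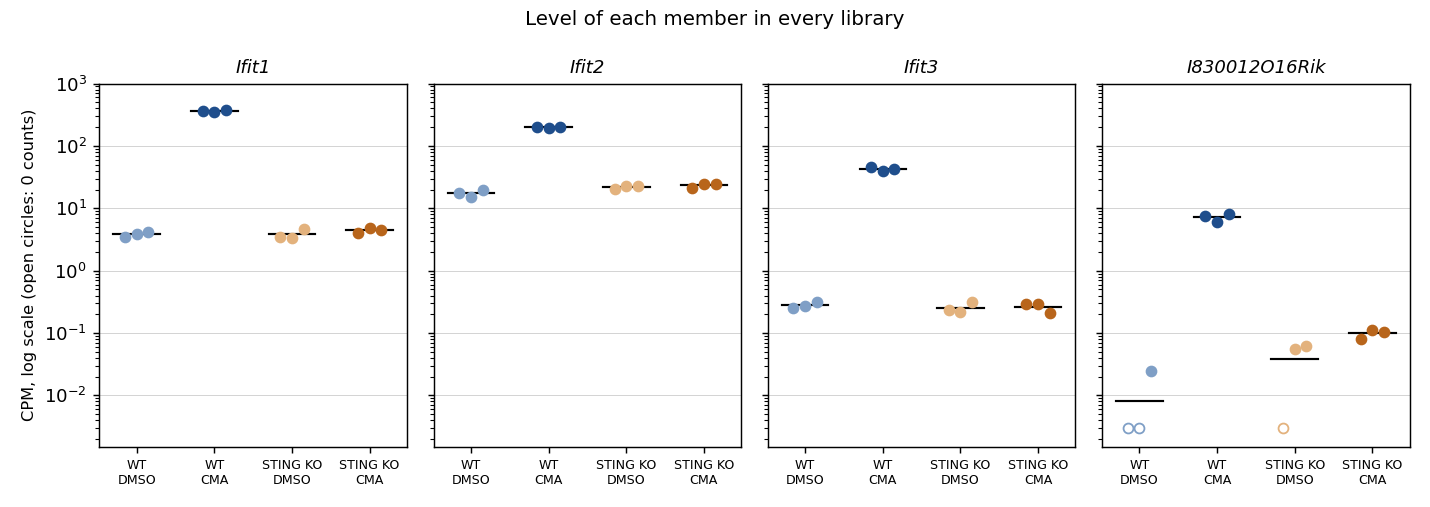
CPM (log scale) of Ifit1, Ifit2, Ifit3 and I830012O16Rik in each of the 12 libraries, by group. Filled points are libraries, open circles libraries with 0 counts, and bars group means. In every panel the 3 WT libraries with CMA lie above all other libraries, and Ifit2 has the highest level in the other 3 groups.

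Over all genes tested, 33.0% were higher with CMA in WT T cells (4560 of 13811, edgeR) with a median log2 fold change of -0.04. A call was thus common, and the members are placed by size instead. Among those 4560 genes, I830012O16Rik ranked 4 by fold change, Ifit3 ranked 22, Ifit1 ranked 36 and Ifit2 ranked 166. Restricted to the 3848 genes whose mean count reached 50, the ranks were 3, 12, 17 and 78 in the same order. The place of I830012O16Rik rests on a fold against 1 read.

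In STING KO T cells Ifit1, Ifit2 and Ifit3 did not pass the test with CMA in edgeR, DESeq2, limma-voom or limma on the authors' log2 values, and 0 of the 3 had an unadjusted p under 0.05 in edgeR. I830012O16Rik did not pass the low-count filter in a fit of the STING KO groups alone and is described apart. Across all genes 1.32% were called there (182 of 13811, in either direction). Ifit1 stood at 3.50, 3.28 and 4.70 CPM with DMSO and at 4.05, 4.79 and 4.55 CPM with CMA, and the groups overlapped. The log2 fold change of Ifit1 was 0.24 (SE 0.11, edgeR adjusted p = 0.401).

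Ifit2 had 20.5, 22.6 and 23.1 CPM with DMSO and 21.6, 24.5 and 24.6 CPM with CMA in STING KO T cells. These groups overlapped too, with a log2 fold change of 0.10 (SE 0.077, edgeR adjusted p = 0.644). Ifit3 had 9, 8 and 10 reads with DMSO and 11, 13 and 8 with CMA, a log2 fold change of 0.08 (SE 0.29, edgeR adjusted p = 0.952). The scaled counts of Ifit3 gave a ratio of 1.06 with an exact 95% interval from 0.615 to 1.84 for counting error, so a moderate change was not detectable at this depth.

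I830012O16Rik was the member whose STING KO libraries did not overlap, with 0, 2 and 2 reads with DMSO and 3, 5 and 4 with CMA. The log2 fold change was 1.34 (SE 0.75, edgeR adjusted p = 0.478), and the ratio of scaled counts was 2.68 with an exact 95% interval from 0.813 to 11.4. Without STING KO DMSO replicate 1, the library with no read, the value was 0.74. It passed in no fit that kept it, and DESeq2 gave it no adjusted p. Its reads with CMA in STING KO T cells, 12 in all, compare with 718 in WT.

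The difference between the CMA effects in WT and STING KO T cells was tested directly, in the same model and with the same libraries. It was larger in WT for all 4 members, against 27.2% of all genes tested (3759 of 13811, edgeR). The log2 difference was 6.32 for Ifit1 (SE 0.16, edgeR adjusted p = 2.61e-14), 3.42 for Ifit2 (SE 0.11, adjusted p = 3.83e-13) and 7.14 for Ifit3 (SE 0.42, adjusted p = 4.61e-10). For I830012O16Rik it was 7.69 with a wide standard error of 1.48 (adjusted p = 0.000312, edgeR), and 9.64 without WT DMSO replicate 3, which held its only read in that group. Leaving out STING KO DMSO replicate 1, which had no read, gave 8.30, limma-voom 6.84 and limma on the authors' log2 values 6.93, and the call held in each case.

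**Figure D2:**
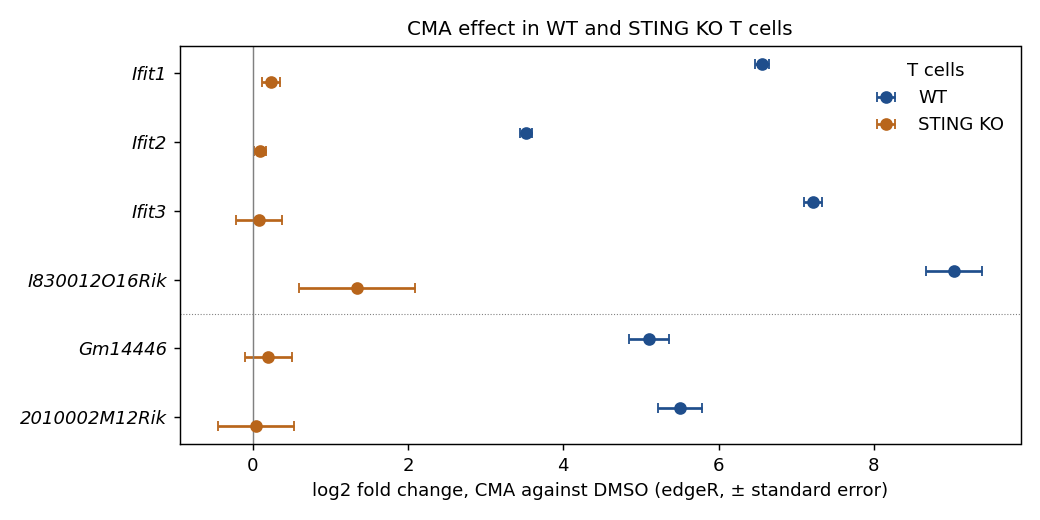
Log2 fold change with CMA against DMSO in WT (blue) and STING KO (orange) T cells, with standard errors from edgeR, for the 4 members (above the dotted line) and the 2 Ifit1-like genes (below it). All 6 WT effects lie between 3.51 and 9.04, and the STING KO effects lie between 0.04 and 1.34.

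With DMSO alone the genotypes differed in Ifit2. It was lower in WT (15.2 to 19.4 CPM) than in STING KO T cells (20.5 to 23.1 CPM), without overlap, by a log2 value of -0.34 (SE 0.081, edgeR adjusted p = 0.00315), and over the alternatives the adjusted p ran from 4.37e-06 to 0.0167. This change is under 2-fold. In this direction 19.8% of all genes were called (2740 of 13811), so a call of this kind is common in these data. Ifit1 (0.03, adjusted p = 0.868), Ifit3 (0.18, adjusted p = 0.734) and I830012O16Rik (-1.57, adjusted p = 0.326) did not pass on the log2 scale, and the sign for Ifit1 turned to as low as -0.08 when single libraries were left out. Ifit3 and I830012O16Rik did not pass the low-count filter in a fit of the DMSO groups alone, so only Ifit1 and Ifit2 were tested there. The value for I830012O16Rik, from 1 read against 4, ran from -3.51 without WT DMSO replicate 3 to -0.83 in limma-voom over the alternatives, and did not pass in any of them. Summed markers of other cells differed between the same groups in the other direction. For B cells the sums were 186 to 194 CPM in WT against 79.96 to 86.3 in STING KO T cells, and for myeloid cells 9.36 to 10.6 against 2.73 to 2.96. For CD8 T and natural killer cells they were 74.7 to 79.2 against 53.2 to 61.2, but that list was split. In it 4 of 6 markers were higher in WT and 1 was lower, against 22.9% and 19.8% of all genes. The lower one was Eomes, with means of 18.0 CPM in WT and 31.3 in STING KO. The part of these cells in the difference of Ifit2 was not tested.

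With CMA all 4 members were higher in WT than in STING KO T cells, against 37.0% of all genes (5104 of 13811, edgeR). The log2 difference was 6.35 for Ifit1 (adjusted p = 2.80e-18), 3.08 for Ifit2 (adjusted p = 1.86e-15), 7.32 for Ifit3 (adjusted p = 9.88e-18) and 6.12 for I830012O16Rik (adjusted p = 9.48e-13, all edgeR). This comparison uses the same WT libraries with CMA as the comparison within WT, so it does not stand as separate evidence. The value for I830012O16Rik is smaller than within WT, where the DMSO libraries held 1 read against 12 in the STING KO libraries with CMA.

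Together the 4 members took up 21.5 ± 2.29 CPM in WT with DMSO, 616 ± 21.2 in WT with CMA, 26.2 ± 1.96 in STING KO with DMSO and 28.4 ± 2.08 in STING KO with CMA (SD, n = 3). In the 3 WT libraries with CMA that was 0.0610%, 0.0580% and 0.0616% of the reads on genes. The ratio of CMA to DMSO was 28.6 in WT and 1.08 in STING KO T cells. By an exact two-sided permutation test of 3 libraries against 3, p was 0.1 in WT, the smallest value the design allows, and 0.3 in STING KO.

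The make-up of the family changed along with its size. Per kb of exon, Ifit2 made up 73.2% ± 2.65 of the family's reads in WT with DMSO, 77.9% ± 2.91 in STING KO with DMSO and 76.1% ± 0.711 in STING KO with CMA, but 23.4% ± 0.0956 in WT with CMA (SD, n = 3). Ifit1 took its place, with 63.6% ± 0.384 in WT with CMA against 24.1% ± 2.53, 19.9% ± 2.63 and 21.3% ± 0.440 in WT with DMSO, STING KO with DMSO and STING KO with CMA. Ifit3 went from 2.66% to 11.3% in WT and stood at 2.01% and 1.94% in STING KO T cells. Its rise of 8.68 percentage points in WT depends on the length used, and was 5.67 points in shares of counts, and 14.6 or 11.7 points with stretches of 50 or 100 bases found in no other gene in place of exon length (chosen after the data were seen). I830012O16Rik went from 0.0606% to 1.65% in WT. The shares of all 4 members in WT with CMA did not overlap those with DMSO. Each of these comparisons had p = 0.1 in the exact permutation test, or 0.16 adjusted over the 16 comparisons of shares made. The same outcome was found for all 4 members between genotypes with CMA and for Ifit3 between genotypes with DMSO. It was also found for I830012O16Rik with CMA in STING KO T cells (from 0.260% to 0.625%). Shares of a whole move together, so these are not separate results.

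**Figure D3:**
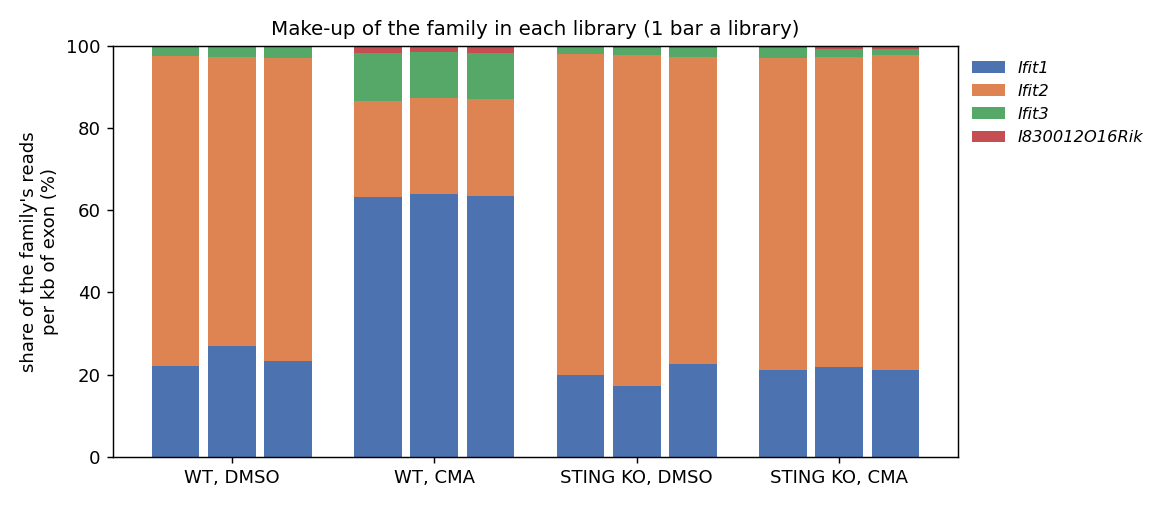
Share of each member in the family's reads per kb of exon (%), with 1 bar for each library and 3 bars for each group. Ifit2 fills most of each bar in 3 groups, and Ifit1 fills 63.2% to 63.9% of each bar in WT with CMA.

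The order of the levels turned accordingly. Per kb of exon, the levels in WT with DMSO were 4.42 CPM for Ifit2, 1.45 for Ifit1, 0.160 for Ifit3 and 0.0041 for I830012O16Rik, and the order was the same in both STING KO groups. In WT with CMA the order was Ifit1 (138 CPM per kb), Ifit2 (50.8), Ifit3 (24.6) and I830012O16Rik (3.59). No neighbours in these orders overlapped between libraries. Ifit1 per Ifit2 went from a ratio of 0.292 to 0.383 in WT with DMSO to 2.70 to 2.72 with CMA, a shift of 3.05 on the log2 scale (SE 0.12, exact permutation p = 0.1, adjusted p = 0.15 over 12 ratio comparisons). Ifit1 and Ifit3 stayed closer, with a shift of their ratio of -0.69 (SE 0.057, exact permutation p = 0.1). The places of Ifit2 and Ifit3 in WT with CMA depend on the length used. Scaled to the number of 50-base stretches found in no other gene in place of exon length, a scale added after the data were seen, Ifit2 stood at 52.9 ± 1.85 and Ifit3 at 51.9 ± 2.96 CPM (SD, n = 3), and their libraries overlapped. On the same scale with stretches of 100 bases they stood at 53.7 and 38.1 and did not overlap.

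The Ifit1-like genes between the members, Gm14446 and 2010002M12Rik, were also low with DMSO and higher with CMA in WT. Gm14446 had 3, 4 and 4 reads with DMSO and 145, 114 and 138 with CMA, and a log2 fold change of 5.10 (SE 0.26, edgeR adjusted p = 3.21e-11). 2010002M12Rik had 4, 1 and 2 reads with DMSO and 109, 120 and 110 with CMA, and a log2 fold change of 5.51 (SE 0.29, edgeR adjusted p = 4.20e-11). Neither passed in STING KO T cells (0.20, adjusted p = 0.836, and 0.04, adjusted p = 0.985, edgeR). With 1 to 7 reads in each library outside WT with CMA, 2010002M12Rik was in the test only through WT with CMA. Its scaled counts in STING KO gave a ratio of 1.03 with an exact 95% interval from 0.458 to 2.35 for counting error. A moderate change was thus not detectable. With DMSO, Gm14446 was lower in WT than in STING KO T cells, with 3 to 4 against 8 to 15 reads. The log2 difference was -1.63 (adjusted p = 0.00543, edgeR), in a direction in which 19.8% of all genes were called. These counts are low, the gene passed the filter with all 12 libraries in the model, and no fit of the DMSO groups alone is given for it. The coding sequences of Gm14446 and 2010002M12Rik matched each other at 88.2% and Ifit1 at 76.6% and 76.9% of aligned bases.

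On each side of this stretch, the nearest tested gene that is also in the deposited expression table did not rise. Lipa, a lysosomal lipase gene that ends 23.2 kb before Ifit2, had a log2 fold change of -0.13 in WT with CMA (adjusted p = 0.0223, edgeR), a call that was lost in DESeq2 (adjusted p = 0.109) and in edgeR without WT CMA replicate 1 or 3 or WT DMSO replicate 1 or 3 (adjusted p from 0.0579 to 0.144). Pank1, a pantothenate kinase gene 161 kb after Ifit1, had -0.56 (adjusted p = 0.000303, edgeR). The 3 nearest genes on each side were taken from the tested genes that are also in that table, so tested genes missing from it were not considered. Rpp30, the farthest, lay 1434 kb after Ifit1. Of these 6 genes, 4 were lower and 1 was higher with CMA in WT. Their median was -0.34 against -0.04 for all genes, of which 37.4% were lower (5168 of 13811) and 33.0% higher. The one that rose was Fas, the death receptor gene 223 kb before Ifit2, from 59.4 ± 2.69 to 146 ± 4.70 CPM (SD, n = 3, adjusted p = 9.28e-13, edgeR). In STING KO T cells none of the 6 passed the test in edgeR, where 1.32% of all genes were called (182 of 13811).

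**Figure D4:**
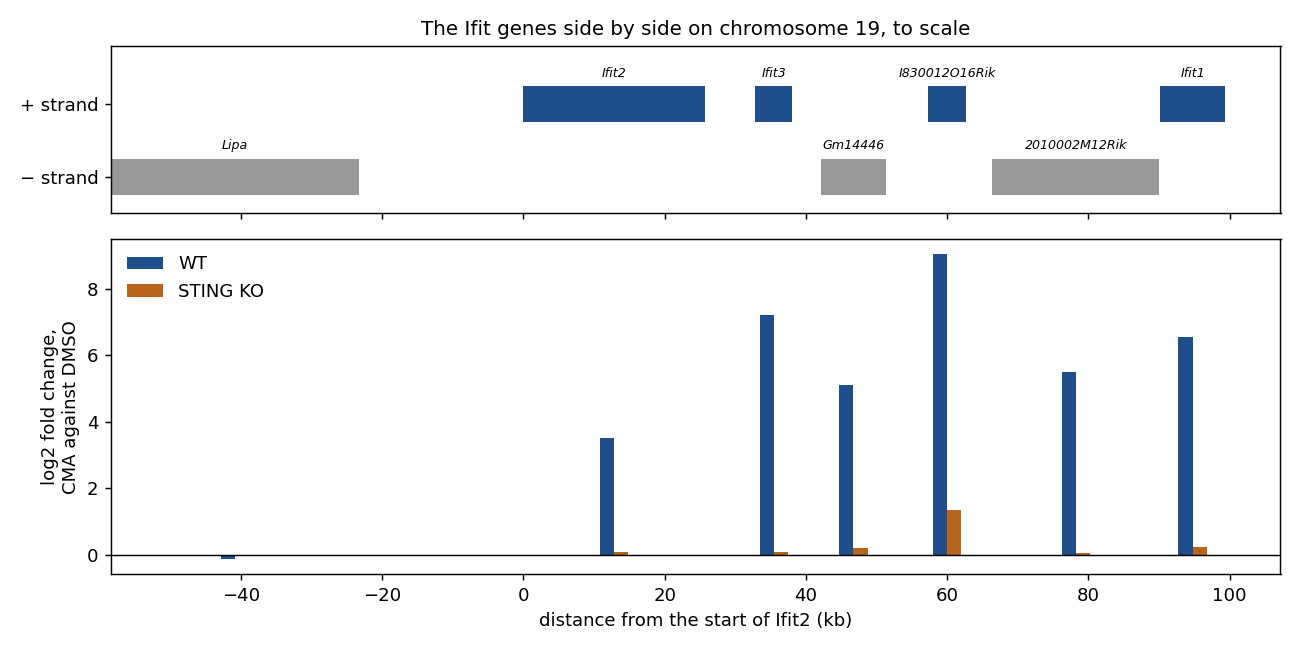
Upper panel, the 6 Ifit genes and Lipa to scale by distance from the start of Ifit2 (kb), plus strand above minus strand, members in blue. Lower panel, log2 fold change with CMA in WT (blue) and STING KO (orange) T cells at the middle of each gene. The 6 Ifit genes rose by 3.51 to 9.04 in WT, and Lipa stood at -0.13.

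Genes that act upstream of the Ifit genes were followed as a list of 14, from interferons to the factors that bind the ISRE. In WT T cells with CMA 10 of the 14 rose and 2 fell, with a median log2 fold change of 1.05 against -0.04 over all genes tested, of which 33.0% rose and 37.4% fell. In STING KO T cells 1 of the 14 rose, where 1.32% of all genes were called in either direction, and the median was -0.02 against 0.0013. The interferon genes Ifnb1 and Ifna4 were barely transcribed with DMSO. Ifnb1 had 0 to 1 reads per WT library with DMSO and 34 to 58 with CMA (adjusted p = 5.16e-09, edgeR), and Ifna4 had 0 to 2 and 61 to 66 (adjusted p = 8.39e-10, edgeR).

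Among the factors, Irf7, which amplifies the interferon response, rose by 5.69 (from 9.13 ± 2.25 to 473 ± 12.3 CPM, SD, n = 3, adjusted p = 5.59e-15, edgeR). Stat2 and Irf9, whose products bind the ISRE, rose less, by 1.98 and 1.36 on the log2 scale (adjusted p at most 5.46e-12, edgeR), and their mean levels in WT were already 162 and 59.7 CPM with DMSO. Usp18, which restrains signalling at the interferon receptor, rose by 4.02 (adjusted p = 3.97e-14, edgeR). The receptor subunit gene Ifnar1 rose by 0.98 and the receptor kinase gene Tyk2 by 1.12. The other subunit gene, Ifnar2, was called lower at -0.15 (adjusted p = 0.0251, edgeR), but not in DESeq2 (adjusted p = 0.0891) nor in edgeR without WT CMA replicate 1 or WT DMSO replicate 2 or 3 (adjusted p from 0.0504 to 0.119). Irf3 fell by 0.25 (adjusted p = 0.00373, edgeR). Jak1 (-0.08) and Socs1 (-0.01) did not pass the test. The gene that rose in STING KO T cells was Irf1, by 0.29 (adjusted p = 0.00383, edgeR) against 0.97 in WT. Irf2 narrowly missed there in the main fit (0.18, adjusted p = 0.0523, edgeR). It passed in DESeq2 at 0.18 (adjusted p = 0.00517), in limma-voom (adjusted p = 0.0492) and in limma on the authors' log2 values (adjusted p = 0.0441). In edgeR it passed with library size scaling, either other filter, the STING KO groups alone or a replicate block (adjusted p from 0.0105 to 0.0407). It also passed in edgeR without WT DMSO replicate 2 or 3 (adjusted p = 0.0188 and 0.0155), but not without any other single library.

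With DMSO, 4 of these 14 genes were lower in WT than in STING KO T cells and 2 were higher, with a median of -0.08 against -0.0018 over all genes, of which 19.8% were lower and 22.9% higher (3160 of 13811). Those lower were Irf7 (-0.89), Irf1 (-0.45), Irf9 (-0.25) and Irf3 (-0.19), the last not without STING KO DMSO replicate 3 or WT DMSO replicate 1 or 3 (adjusted p from 0.0637 to 0.105, edgeR). Those higher were Usp18 (0.87) and Socs1 (0.72).

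The products with which IFIT proteins work, and other RNA sensors, formed a list of 8. With CMA in WT, 5 rose and 3 fell, with a median of 0.33 against -0.04 over all genes, of which 33.0% rose and 37.4% fell. In STING KO T cells none of the 8 passed the test in edgeR, where 1.32% of all genes were called (182 of 13811). Ifih1 did pass at 0.17 (adjusted p = 0.0486) in an edgeR fit of the STING KO groups alone. The RNA sensor genes Ifih1 (MDA5) and Ddx58 (RIG-I) rose by 3.87 and 2.00 (adjusted p at most 5.84e-15, edgeR). The eIF3 subunit genes Eif3e and Eif3c fell by 0.69 and 0.25 (adjusted p at most 4.24e-05, edgeR). The cap methyltransferase genes, whose products place the marks that spare host mRNA from IFIT1, moved in opposite directions, with Cmtr1 up by 0.56 (adjusted p = 0.000184, edgeR) and Cmtr2 down by 0.70 (adjusted p = 5.07e-06, edgeR). Tbk1 and Mavs rose by 0.42 and 0.24.

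**Figure D5:**
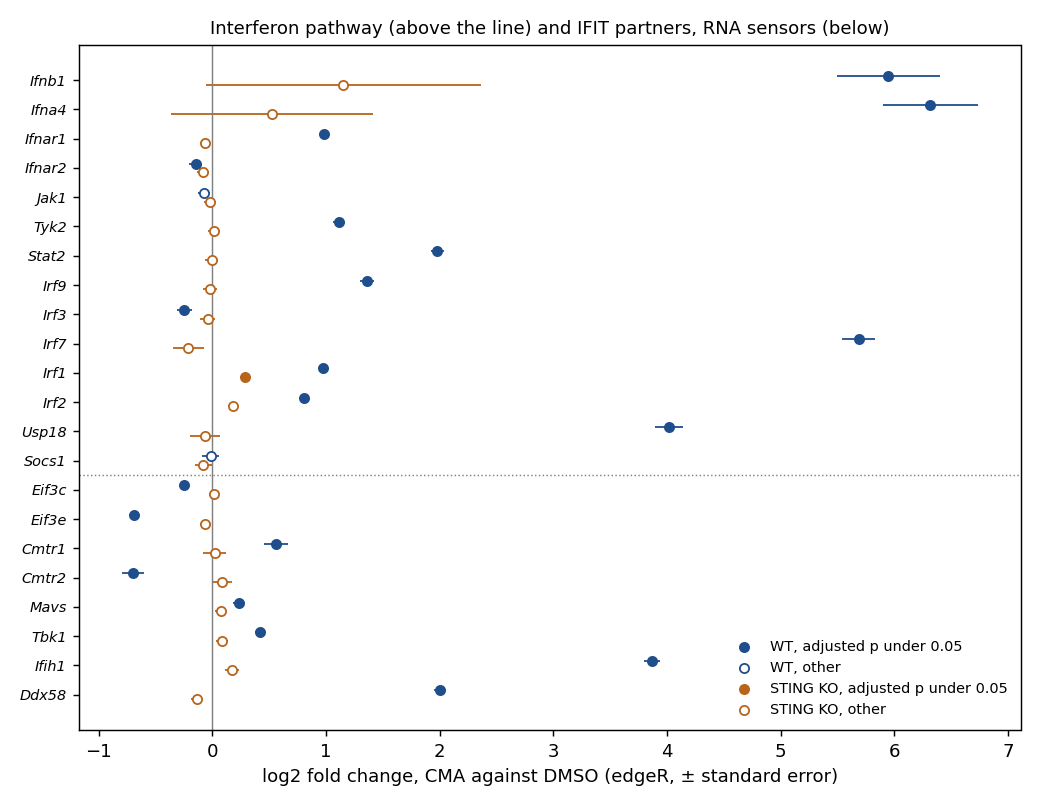
Log2 fold change with CMA against DMSO, with standard errors from edgeR, in WT (blue) and STING KO (orange) T cells for the 14 upstream genes (above the dotted line) and the 8 partner and sensor genes (below it). Filled points have an adjusted p under 0.05. In STING KO T cells Irf1 alone is filled.

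The genes whose levels followed the members most closely across the 12 libraries were found by the root mean square distance between centred log2 CPM values, among 11195 other genes with a mean count of at least 50. Nearest to the mean of the members were Plagl1 (distance 0.22), Ddx60 (0.30), Cxcl10 (0.31), Scin (0.33) and Mx1 (0.35). Their Pearson correlations with that mean were 0.993 to 0.998 over 12 libraries, which fall into 4 groups, so these values mainly describe the gap between WT with CMA and the rest. Taken one by one, Ifit1 was nearest to Scin, Ifit2 to Papss2, Ifit3 to Oasl2 and I830012O16Rik to Mx1. Oasl2 and Mx1 encode interferon-induced antiviral proteins, and Papss2 encodes an enzyme that makes the sulphate donor of the cell. Within the family, by this measure, Ifit1 and Ifit3 were the closest pair (0.30), and Ifit2 and Ifit3 the most distant (1.67). The prior count of 2 compresses distances that involve I830012O16Rik, which had 0 to 5 reads per library outside WT with CMA. By fitted log2 fold change with CMA in WT, I830012O16Rik (9.04) and Ifit2 (3.51) lay furthest apart.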

How the data were processed

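The members, lists and tests were chosen with earlier results of these data known. For each library the authors deposited whole-read counts by Ensembl gene ID, and for the series a log2 table of 11921 genes, which equals the log2 of the count plus 0.5, scaled per library. Per the labels' processing notes, STAR 2.4.0f1, HTSeq 0.6.1, cutadapt 1.3, RSEM 1.2.16 and GRCm38 were used. The libraries came from a stranded mRNA kit, and the read length and the strand setting of the counting are not given in the sources used here. CMA was given at 0.125 mg/ml.

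The counts were tested with edgeR 4.0.16 (glmQLFit and glmQLFTest, R 4.3.3), with filterByExpr, TMM scaling and the 4 groups in 1 model. The threshold was a Benjamini-Hochberg adjusted p under 0.05 over 13811 genes. CPM values use the TMM-scaled library size, and centred log2 CPM a prior count of 2. The edgeR, DESeq2 and limma-voom fits were tested on simulated counts in their default settings. The other alternatives were not tested in this way. Replicate pairs differed by more than sampling noise. Chi-square per degree of freedom was 9.67 to 28.95 in WT with DMSO and 2.59 to 6.66 in the other groups. Shares and sums were tested by exact permutation (Python 3.11.15, scipy 1.17.1). Sequences came from RefSeq promoter windows (GRCm38.p6, matched for 4 of 4 members) and GENCODE M21 transcripts.

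The genes named were the members, the other Ifit genes, the fixed lists and the neighbours. Neighbours were the 3 nearest tested genes of the deposited expression table on each side. Named too were the genes nearest in profile (5 for the mean of the members, 1 for each). Some genes of these lists are not reported here and enter no count or sum of a list. Alternatives were library size scaling, DESeq2 1.42.0, limma-voom and limma on the log2 table (limma 3.58.1), dropping the filter or requiring 10 counts in each library, the compared groups alone, a replicate block, stricter thresholds and leaving out each library. Tests that rest on 3 libraries a group have limited precision, and intervals on counts cover counting error only.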

Additional observations from a re-analysis of the deposited data

Results flagged for a closer look

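For the genes below the CMA effect differed between WT and STING KO T cells in edgeR's test of the difference itself (adjusted p under 0.05), given as the log2 effect in WT minus that in STING KO. Among the members the difference was 6.32 for Ifit1, 3.42 for Ifit2, 7.14 for Ifit3, 7.69 for I830012O16Rik and 7.05 for Ifit3 and I830012O16Rik summed. For the other Ifit genes it was 4.91 for Gm14446 and 5.46 for 2010002M12Rik. Of the upstream genes, Irf7 differed by 5.90, Ifna4 by 5.80, Usp18 by 4.08, Stat2 by 1.98, Irf9 by 1.39, Tyk2 by 1.10, Ifnar1 by 1.04, Irf1 by 0.68 and Irf2 by 0.62. Of the partners and sensors, Ifih1 differed by 3.69, Ddx58 by 2.14, Cmtr1 by 0.53, Tbk1 by 0.34, Eif3c by -0.26, Eif3e by -0.62 and Cmtr2 by -0.79. Of the neighbours, Fas differed by 1.22, Stambpl1 by -0.40, Rpp30 by -0.55 and Pank1 by -0.71.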

How the results depend on the processing

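With at least 10 counts in every library, 2 of the 4 members could be tested, and both were called with CMA in WT, for the difference of the effects and between genotypes with CMA, so these counts fell from 4 to 2 because fewer genes were tested. With at least a 2-fold change required, 0 members differed between genotypes with DMSO, since Ifit2 was at -0.34. Leaving out single libraries, these small uncalled values changed sign. Between genotypes with DMSO, Ifit1 ran from -0.075 to 0.19 and the sum of Ifit3 and I830012O16Rik from -0.14 to 0.22. With CMA in STING KO T cells, Ifit3 ran from -0.012 to 0.23 and its share of the family moved by -0.256 to 0.174 percentage points. For the members no other alternative ended a call or turned a direction. Among the listed upstream, partner and neighbouring genes no called value changed sign, but counts moved. With at least a 2-fold change required in WT with CMA, the genes called higher and lower were 7 and 0 of the upstream genes, 2 and 0 of the partners and 1 and 0 of the neighbours, and Irf1 was not called in STING KO T cells, nor any upstream gene between genotypes with DMSO. Over the other alternatives in WT with CMA, 8 to 10 upstream genes were higher (8 with at least 10 counts, where 12 were tested) and 1 to 2 lower, 5 partners were higher and 3 lower, and 1 neighbour was higher and 3 to 5 lower. Between genotypes with DMSO, 2 to 3 upstream genes were higher and 3 to 6 lower. No source used here states that replicate numbers pair the libraries. The deposited sample names share their first digit in 5 of 6 same-numbered pairs, all but STING KO replicate 2, with no meaning given, and same-numbered libraries correlated weakly (0.0019 to 0.13 in WT and 0.059 to 0.063 in STING KO). With a replicate block within each genotype, 4 members were still called with CMA in WT, 0 in STING KO and 4 for the difference. The comparisons between genotypes could not be fitted with that block, nor the difference with only the groups compared. With only the groups compared, 3 members were tested with CMA in STING KO T cells and 2 between genotypes with DMSO. With a prior count of 5, 2 of the 5 genes nearest to the mean of the members were shared with the list given, and 4 with no minimum count. Low depth limits Ifit3 and I830012O16Rik outside WT with CMA, where libraries hold 0 to 13 reads.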
